A study of Mus musculus with 10 samples.

Results

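The germline genes examined here are 10 mouse genes that are transcribed in germ cells and held silent in most somatic cells: Dazl, Ddx4, Stk31, Tex19.1, Tex101, Taf7l, Slc25a31, Brdt, Tuba3a and Tuba3b. They were chosen by name, as genes reported to be kept silent in somatic cells by the histone methyltransferase SETDB1 or by DNA methylation. The choice was made with earlier results of these data known. The expression table held rows for all 10, among 24453 gene symbols. The libraries came from fully grown oocytes at the germinal vesicle (GV) stage, the stage of meiotic arrest before maturation, collected from C57Bl/6J mice in medium with milrinone, which maintains that arrest. The mutant oocytes had the genotype Setdb1 F/-; ZP3-cre and came from 4 mice. Their controls were Setdb1 F/+; ZP3-cre oocytes from 4 mice and Setdb1 F/- oocytes, without Cre, from 2 mice. Each library was made from 16 denuded oocytes, freed of their surrounding granulosa cells, of 1 mouse, so the replicates are separate animals. All 10 mice carried a floxed Setdb1 allele (F), so no group was wild type at Setdb1 and control levels are not those of wild-type oocytes. The mutant and F/- mice also shared a deleted allele, and the mutant and F/+; ZP3-cre mice shared the transgene. ZP3-cre is driven by the promoter of the zona pellucida gene Zp3, which is active in growing oocytes and not in earlier germ cells or ovarian somatic cells. No source used here gives the ages of the mice.

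SETDB1 methylates histone H3 at lysine 9 (H3K9) and is brought to its targets with TRIM28 and sequence-specific factors. Many germline promoters are rich in CpG, are methylated by DNA methyltransferases in somatic lineages, and are bound by a variant Polycomb complex that contains E2F6, MGA, MAX and L3MBTL2 and that can recruit H3K9 methyltransferases. In germ cells these genes are active and encode RNA-binding proteins, meiotic and piRNA factors, and germ-cell versions of proteins that other cells also use. An oocyte is a cell in which part of this set is normally on. The comparison shows the levels of the set when Setdb1 RNA is low in a cell that transcribes many of its members. The values used here are RNA levels and do not show SETDB1 protein or H3K9 methylation.

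The promoters of 4 members are shown because 3 of them belong to the genes that fell in the mutant and the fourth, Tuba3a, is the close copy of one of these. Each sequence runs 5′ to 3′ on the gene's strand, from 250 bases before to 50 bases after the RefSeq transcription start in GRCm38.p6. Capitals mark the motifs GCGGGA, the core of an E2F6 site, and CACGTG, the E-box read by MGA with MAX. GCGGGA was searched on both strands, so the letters TCCCGC are also in capitals where they occur, and CACGTG is its own reverse complement. The windows lie at chr17:50293571-50293870 on the minus strand for Dazl, chr6:49395289-49395588 on the plus strand for Stk31, chr6:145615713-145616012 on the plus strand for Tuba3b and chr6:125286032-125286331 on the minus strand for Tuba3a, and for Stk31 the first of its 2 listed starts was taken.
Dazl: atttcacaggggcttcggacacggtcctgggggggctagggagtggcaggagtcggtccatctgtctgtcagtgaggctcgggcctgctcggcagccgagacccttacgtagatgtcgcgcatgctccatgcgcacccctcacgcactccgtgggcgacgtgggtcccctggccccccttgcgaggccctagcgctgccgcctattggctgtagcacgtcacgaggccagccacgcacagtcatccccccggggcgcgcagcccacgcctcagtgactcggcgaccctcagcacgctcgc
Stk31: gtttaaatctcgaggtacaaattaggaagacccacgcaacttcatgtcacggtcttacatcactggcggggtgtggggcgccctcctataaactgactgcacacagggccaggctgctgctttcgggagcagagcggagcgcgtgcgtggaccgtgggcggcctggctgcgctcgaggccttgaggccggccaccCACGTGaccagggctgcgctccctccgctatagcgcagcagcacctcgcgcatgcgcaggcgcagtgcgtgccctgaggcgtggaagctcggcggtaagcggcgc
Tuba3b: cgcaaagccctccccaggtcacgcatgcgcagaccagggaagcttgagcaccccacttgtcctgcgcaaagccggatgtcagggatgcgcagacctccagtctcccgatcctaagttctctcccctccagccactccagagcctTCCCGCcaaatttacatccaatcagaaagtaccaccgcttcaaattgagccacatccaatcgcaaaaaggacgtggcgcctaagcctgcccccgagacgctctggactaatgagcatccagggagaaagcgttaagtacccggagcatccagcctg
Tuba3a: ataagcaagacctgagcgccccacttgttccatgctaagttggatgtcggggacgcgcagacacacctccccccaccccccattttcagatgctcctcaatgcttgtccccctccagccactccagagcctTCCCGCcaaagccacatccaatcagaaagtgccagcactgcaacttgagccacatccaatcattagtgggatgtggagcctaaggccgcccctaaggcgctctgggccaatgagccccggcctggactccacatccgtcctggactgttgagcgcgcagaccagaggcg

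The Dazl window held neither motif, the Stk31 window held CACGTG, and the Tuba3a and Tuba3b windows each held GCGGGA. Among all 10 members, GCGGGA was found in 5 windows (Ddx4, Tex19.1, Slc25a31, Tuba3a and Tuba3b), against 19.98% of the 32851 RefSeq promoter windows of the same length. CACGTG was found in 5 windows (Ddx4, Stk31, Taf7l, Slc25a31 and Brdt), against 7.15% of all windows. Ddx4 and Slc25a31 held both motifs, as did 1.99% of all windows, and Dazl and Tex101 held neither. The number of CpG dinucleotides per window ran between 12 in Tuba3a and 38 in Ddx4, with 28 in Dazl, 29 in Stk31 and 16 in Tuba3b. The median over all windows was 7, and 39.6% of all windows held 12 or more. Both motifs contain a CpG, and the motif shares over all windows were not matched for CpG number. Whether the members hold these motifs more often than windows of like CpG number was not tested. The genes that fell and those that did not were found with and without each motif. A match describes the letters of a window and does not show that a factor binds there.

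Expression was given in RPKM, a read count divided by transcript length and library size, so levels can be set side by side between genes. The 12 oocyte markers were present in every group at summed levels of 5124 to 5298 RPKM in mutants, 5112 to 6398 RPKM in F/+; ZP3-cre and 5981 to 6774 RPKM in F/- libraries, and 1 of them (Nobox) passed the test as higher and 1 (Kit) as lower in mutants, both named after their values were seen. Granulosa markers, of which 7 of 12 averaged at least 0.5 RPKM, summed to 78.1 to 112 RPKM in mutants, 90.8 to 104 RPKM in F/+; ZP3-cre and 76.1 to 77.9 RPKM in F/- libraries. Most of this sum came from Serpine2, with a mean of 65.6 RPKM over all 10 libraries. Theca and stroma markers summed to at most 3.91 RPKM in any library, with Cyp17a1, Lhcgr and Col3a1 at 0 in all 10. Markers of blood, immune and endothelial cells summed to 22.1 to 43.1 RPKM in mutants, 30.2 to 40.5 RPKM in F/+; ZP3-cre and 45.7 to 47.4 RPKM in F/- libraries, with Hba-a1 and Hbb-b1 at 0. Pecam1 was the highest of these, with a mean of 17.6 RPKM over all 10 libraries. No granulosa, theca, blood or spermatogenic marker passed the test between mutants and all controls. The libraries held about 45700000 to 72800000 reads each, as estimated from the steps of the low values. Correlations between libraries on the log2 scale ran from 0.845 to 0.987, and F/- replicate 2 had the lowest mean correlation with the other libraries, at 0.887, next to 0.892 for mutant replicate 2. Setdb1 averaged 2.81 ± 1.17 RPKM in mutants (SD, n = 4) and 29.7 ± 11.5 RPKM in all controls (SD, n = 6), or 9.47% of the control level (limma adjusted p = 9.8e-06), and its exons overlap those of Cers2 and Gm37500 on the opposite strand. In a pool of oocytes, fewer expressing cells and less RNA per cell cannot be told apart.

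Dazl, Stk31 and Tuba3b fell in Setdb1-mutant oocytes. Ddx4, Brdt, Slc25a31, Tex19.1 and Tuba3a, all expressed in the oocyte, did not pass the test in either direction. Tex101 and Taf7l were at or near 0 in every library, in mutants and controls alike. Differences were tested with limma on log2(RPKM + 0.5) over the 11338 genes that averaged at least 0.5 RPKM, with Benjamini-Hochberg adjustment and a threshold of 0.05 on the adjusted p. Of the 10 members, 8 passed that expression filter, Tuba3b through its control libraries alone, and of these 3 were called lower, against 2.22% of all tested genes. None was called higher, against 3.10% of all tested genes. Because the members were chosen with earlier results of these data known, these shares are not an independent test of the set. The median log2 difference of the 8 members was -0.09, and that of all tested genes was 0.03. Over all genes 352 were higher and 252 lower. After each library was centred on its median the split was 303 higher and 339 lower, and the count for the members was again 3 lower and 0 higher. With no expression filter the adjusted p was 0.062 for Dazl, 0.058 for Stk31 and 0.065 for Tuba3b, so that none of the 3 passed. In 3 members every mutant library lay below every control library, against 3.56% of all tested genes, and in 0 members every mutant library lay above, against 4.62%.

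**Figure D1:**
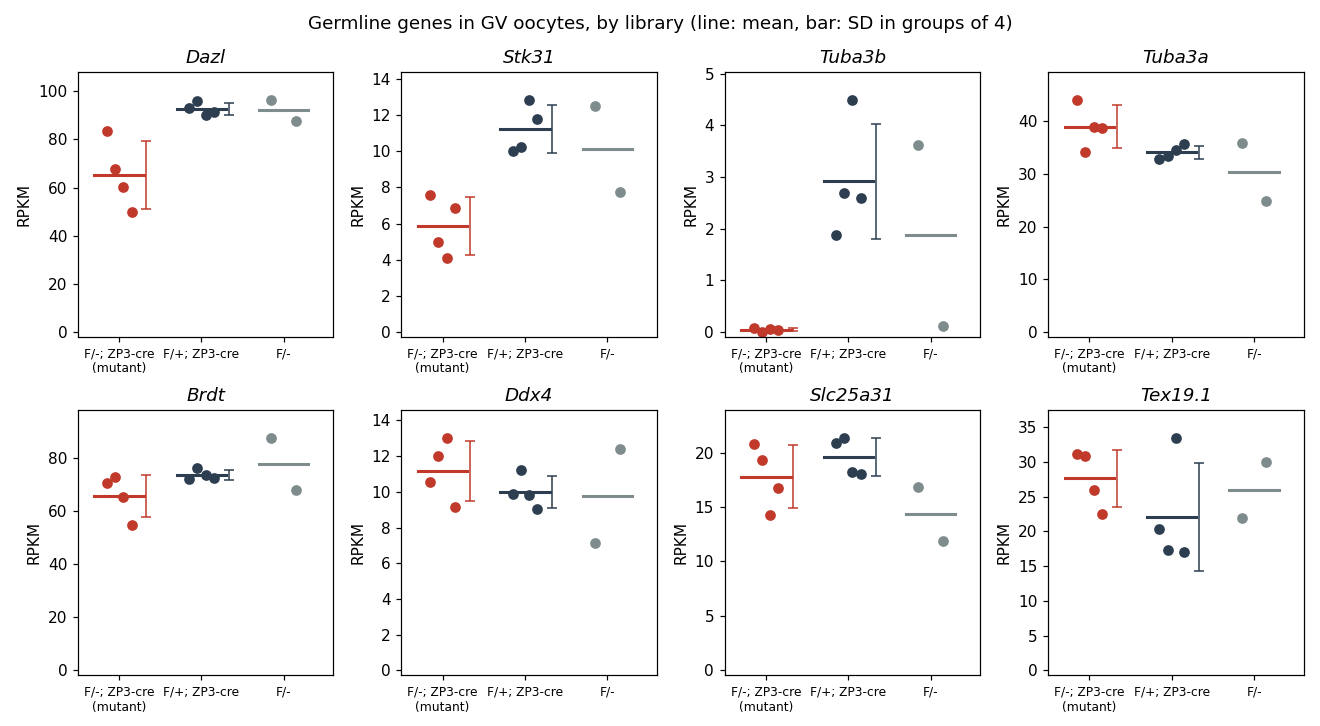
RPKM of the 8 expressed germline genes in each library (points), by genotype, with the mutant group on the left, group means (lines) and SD (bars, groups of 4). In Dazl, Stk31 and Tuba3b all 4 mutant points lie below all 6 control points, while the groups overlap in the other 5 genes.

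Dazl encodes an RNA-binding protein that controls the translation of germ-cell mRNAs, including during oocyte maturation. It lies at chr17:50279395-50293636 on the minus strand (GENCODE M21, GRCm38). Dazl was measured at 83.3, 67.6, 60.4 and 49.9 RPKM in mutant replicates 1 to 4, at 93.2, 95.9, 90.1 and 91.3 RPKM in F/+; ZP3-cre replicates 1 to 4, and at 96.5 and 87.6 RPKM in the F/- libraries. All mutant libraries were below all controls, and they were spread over a wider range than the controls, with replicate 1 the nearest to them. The means were 65.3 ± 14.0 RPKM in mutants (SD, n = 4) and 92.4 ± 3.43 RPKM in all controls (SD, n = 6), so the mutant mean was 70.7% of the control mean. The log2 difference was -0.52 (SE 0.12, 95% interval -0.79 to -0.26, limma adjusted p = 0.025). This call is close to the threshold: the adjusted p was 0.073 without mutant replicate 3, 0.071 without mutant replicate 4, 0.059 without F/+; ZP3-cre replicate 1, 0.060 without its replicate 2 and 0.054 without its replicate 4, with log2 differences of -0.65 to -0.40 in all settings tried. A second Dazl transcript row stayed within 0.979 to 0.996 times the first in mutants and 0.992 to 1.001 times in controls.

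Stk31 encodes a protein with a Tudor domain, which reads methylated arginine, and a kinase-like domain. It lies at chr6:49395604-49469501 on the plus strand. Stk31 was measured at 7.56, 4.97, 4.11 and 6.87 RPKM in mutant replicates 1 to 4, at 9.98, 10.3, 12.8 and 11.8 RPKM in F/+; ZP3-cre replicates 1 to 4, and at 12.5 and 7.77 RPKM in the F/- libraries. The highest mutant library and F/- replicate 2 were almost level, and the remaining controls were well above. The mean was 5.88 ± 1.61 RPKM in mutants (SD, n = 4) and 10.8 ± 1.90 RPKM in all controls (SD, n = 6), a mutant level of 54.2% of control. The log2 difference was -0.85 (SE 0.21, 95% interval -1.30 to -0.40, limma adjusted p = 0.032). The call was lost without mutant replicate 2 (adjusted p = 0.077) or 3 (0.093), without any one of the F/+; ZP3-cre replicates 1 to 4 (0.065, 0.066, 0.068 and 0.079) and without F/- replicate 1 (0.051), while the log2 difference stayed between -0.97 and -0.70.

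Tuba3b and Tuba3a encode alpha-tubulins of the type first known from testis, and alpha-tubulin pairs with beta-tubulin to build microtubules. They lie apart on chromosome 6, Tuba3b at chr6:145615757-145621479 on the plus strand and Tuba3a at chr6:125278274-125286042 on the minus strand. The transcripts were 96.2% identical over 1493 aligned bases, with a longest shared run of 179 bases, and the 2 promoter windows printed above were 77.0% identical over 265 aligned bases. Of the 50-base stretches of the Tuba3b transcript, 29.5% also occur in another gene, and of those of Tuba3a 35.3%. No source used here gives how reads that match both copies were counted, so the split between the copies is uncertain.

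Tuba3b was measured at 0.0729, 0.0113, 0.0701 and 0.0327 RPKM in mutant replicates 1 to 4, at 1.87, 2.69, 4.49 and 2.601 RPKM in F/+; ZP3-cre replicates 1 to 4, and at 3.63 and 0.123 RPKM in the F/- libraries. All mutants were close to 0, and F/- replicate 2, a control, was near them, while the other 5 controls were far above. In reads, estimated from depth and transcript length, this was about 7.9, 1.1, 6.8 and 3.4 in mutants, about 204 to 450 in F/+; ZP3-cre, and about 294 and 15.9 in the F/- libraries. The mean was 0.0468 ± 0.0299 RPKM in mutants (SD, n = 4) and 2.57 ± 1.504 RPKM in all controls (SD, n = 6), or 1.82% of the control mean. The log2 difference of RPKM + 0.5 was -2.25 (SE 0.48, 95% interval -3.28 to -1.21, limma adjusted p = 0.016). The pseudocount sets much of that size: the difference was -3.76 with 0.1 RPKM and -1.62 with 1 RPKM added, and the call held with each. With no expression filter it did not hold (adjusted p = 0.065), and the gene entered the filtered test through its control libraries alone. In the filtered test the call held without each single library, with a log2 difference of -2.66 (adjusted p = 0.00012) without F/- replicate 2.

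Tuba3a, in contrast to its copy, was measured at 44.1, 34.1, 38.9 and 38.7 RPKM in mutant replicates 1 to 4, at 32.8, 33.5, 34.6 and 35.7 RPKM in F/+; ZP3-cre replicates 1 to 4, and at 35.9 and 24.8 RPKM in the F/- libraries. Mutant replicates 1, 3 and 4 were above all controls and replicate 2 was among them. The log2 difference was 0.25 (SE 0.13, 95% interval -0.03 to 0.52, limma adjusted p = 0.32), so an increase of this gene was not shown. As a share of the summed RPKM of the pair, Tuba3b made up 0.0333% to 0.180% in mutants, 5.38% to 11.5% in F/+; ZP3-cre, and 9.18% and 0.493% in the F/- libraries. Tuba3a shares exon sequence with 4930417O13Rik on the opposite strand, and the library kit named in the labels does not mark strand.

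**Figure D2:**
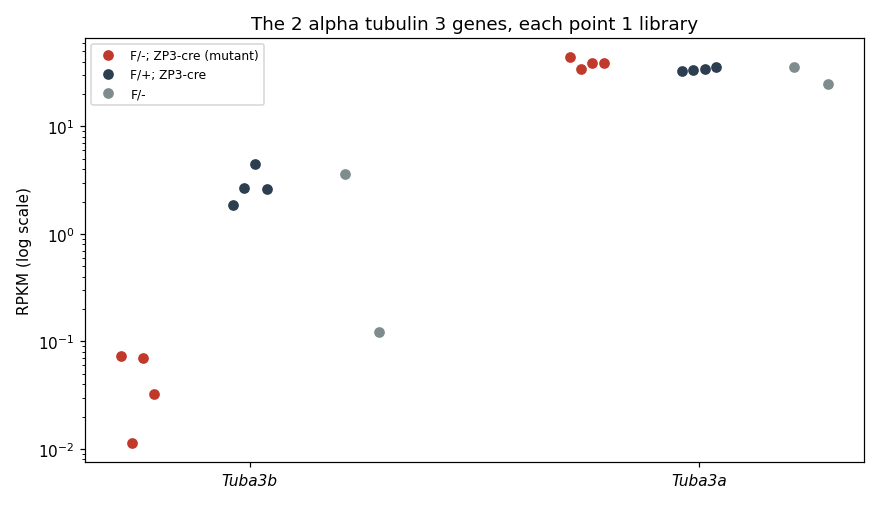
RPKM of Tuba3b and Tuba3a in each library on a log axis, by genotype with the mutants first. Tuba3b lies at 0.0113 to 0.0729 RPKM in the 4 mutants and at 0.123 RPKM in F/- replicate 2, while Tuba3a lies between 24.8 and 44.1 RPKM in every library.

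Brdt encodes the bromodomain protein of the BET family that is specific to germ cells and binds acetylated histones. It was measured at 70.4, 72.7, 65.4 and 54.7 RPKM in mutant replicates 1 to 4, at 72.0, 76.3, 73.6 and 72.3 RPKM in F/+; ZP3-cre replicates 1 to 4, and at 87.5 and 67.9 RPKM in the F/- libraries. The groups overlapped, with mutant replicate 4 the lowest of all libraries. The log2 difference was -0.19 (SE 0.11, 95% interval -0.42 to 0.04, limma adjusted p = 0.37). Brdt has a second, longer transcript row of 4745 bases, and the level of the 1607-base row was 2.26 to 2.33 times that of the longer one in mutants and 2.29 to 2.72 times in controls.

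Ddx4 encodes the germ-cell RNA helicase known as vasa in Drosophila, which serves the piRNA pathway in the male germline. It was measured at 10.5, 12.03, 13.0 and 9.17 RPKM in mutant replicates 1 to 4, at 9.89, 11.2, 9.85 and 9.06 RPKM in F/+; ZP3-cre replicates 1 to 4, and at 7.11 and 12.4 RPKM in the F/- libraries. The groups overlapped throughout, and the 2 F/- libraries spanned most of the range. Mutants and controls differed by a log2 of 0.17 (SE 0.18, 95% interval -0.22 to 0.56, limma adjusted p = 0.65).

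Slc25a31 encodes the germ-cell ADP/ATP carrier of the inner mitochondrial membrane. It was measured at 20.8, 19.3, 14.2 and 16.8 RPKM in mutant replicates 1 to 4, at 20.9, 21.3, 18.2 and 18.0 RPKM in F/+; ZP3-cre replicates 1 to 4, and at 16.8 and 11.9 RPKM in the F/- libraries. The mutants lay across the range of the controls, and F/- replicate 2 was the lowest library. The log2 difference was 0.00 (SE 0.18, 95% interval -0.38 to 0.38, limma adjusted p = 0.99), and its sign was negative after median centring (-0.06).

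Tex19.1 encodes a protein of placental mammals that limits retrotransposons in germ cells and is needed in male meiosis. It was measured at 31.2, 30.8, 26.0 and 22.5 RPKM in mutant replicates 1 to 4, at 20.3, 17.3, 33.5 and 17.1 RPKM in F/+; ZP3-cre replicates 1 to 4, and at 21.9 and 30.0 RPKM in the F/- libraries. The highest library was a control, F/+; ZP3-cre replicate 3, and the groups overlapped. Mutants differed from controls by 0.27 on the log2 scale (SE 0.20, 95% interval -0.15 to 0.70, limma adjusted p = 0.48). For these 5 genes the intervals allow changes in either direction, so equal levels in the 2 groups were not shown.

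Tex101, which encodes a surface glycoprotein of male germ cells, was listed at 0 RPKM in all 10 libraries. A count of 3 reads would have been 0.039 RPKM in the deepest and 0.062 RPKM in the shallowest library. Taf7l, which encodes a germ-cell form of the TFIID subunit TAF7 and lies on the X chromosome, was listed at 0 RPKM in all 4 mutants and both F/- libraries, and at 0.00776 and 0.0183 RPKM in F/+; ZP3-cre replicates 2 and 3, which is about 1.0 and 2.0 reads. Each value was under the level of 3 reads, 0.021 to 0.034 RPKM, so neither gene was detected at this depth in mutant or control oocytes. These limits cover counting error only, since the libraries were made from amplified cDNA.

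Taking for each gene its highest row, the order of the mean levels was not the same in mutants and controls. In mutants it ran Brdt (65.8 ± 7.97), Dazl (65.3 ± 14.0), Tuba3a (38.9 ± 4.09), Tex19.1 (27.6 ± 4.15), Slc25a31 (17.8 ± 2.88), Ddx4 (11.2 ± 1.69), Stk31 (5.88 ± 1.61) and Tuba3b (0.0468 ± 0.0299), in RPKM (SD, n = 4). In all controls it ran Dazl (92.4 ± 3.43), Brdt (74.9 ± 6.75), Tuba3a (32.9 ± 4.12), Tex19.1 (23.3 ± 6.84), Slc25a31 (17.9 ± 3.42), Stk31 (10.8 ± 1.90), Ddx4 (9.92 ± 1.81) and Tuba3b (2.57 ± 1.504), in RPKM (SD, n = 6). Dazl and Brdt overlapped in the mutants, whereas every control value of Dazl was above every control value of Brdt, the nearest values being 87.6 RPKM for Dazl and 87.5 RPKM for Brdt. This holds for the shorter Brdt row alone, since the longer row, at 24.2 to 31.2 RPKM in mutants and 25.0 to 32.2 RPKM in controls, lay below Dazl in every library. Stk31 lay below Ddx4 without overlap in the mutants, with 4.11 to 7.56 RPKM for Stk31 and 9.17 to 13.0 RPKM for Ddx4, whereas the control libraries of the 2 genes overlapped. Slc25a31 and Tex19.1, and Tex19.1 and Tuba3a, overlapped among controls but not among mutants. Tuba3b had the lowest mean of the 8 in each group.

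Against the F/+; ZP3-cre oocytes alone, which share the transgene with the mutants, the same 3 members were called lower, against 2.13% of all tested genes, and none was called higher, against 2.76%. Over all genes that comparison called 313 higher and 241 lower, or 266 and 344 after median centring. The log2 differences were -0.53 for Dazl (SE 0.14, limma adjusted p = 0.045), -0.91 for Stk31 (SE 0.23, limma adjusted p = 0.041) and -2.59 for Tuba3b (SE 0.49, limma adjusted p = 0.010). Tuba3b entered this test through its control libraries alone, and the calls of Dazl and Stk31 lay close to the threshold. Over all genes, 66 to 111 were called lower when a single F/+; ZP3-cre library was left out. How the member calls of this comparison hold in the other settings is not given here. Against the F/- oocytes, which share the deleted allele but lack Cre, no member was called lower, against 1.59% of all tested genes, or higher, against 3.25%, by limma at an adjusted p of 0.05. In that comparison 4 members had an unadjusted p under 0.05, as did 2434 of all tested genes. The log2 differences there were -0.51 for Dazl (SE 0.17, limma adjusted p = 0.098), -0.74 for Stk31 (SE 0.28, limma adjusted p = 0.15), -1.55 for Tuba3b (SE 0.60, limma adjusted p = 0.16) and 0.37 for Tuba3a (SE 0.16, limma adjusted p = 0.21). These comparisons share the mutant libraries, and the F/- group has 2 libraries, which lie far apart in Tuba3b.

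Between the control genotypes, F/- oocytes against F/+; ZP3-cre oocytes, no member was called by limma, against 0.0706% of all tested genes in either direction. Slc25a31 was the member with an unadjusted p under 0.05, as were 1584 genes in all, with a log2 difference of -0.46 (limma adjusted p = 0.34). For Tuba3b the log2 difference was -1.04 (SE 0.60, 95% interval -2.35 to 0.27, limma adjusted p = 0.47), with the F/- libraries at 3.63 and 0.123 RPKM.

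**Figure D3:**
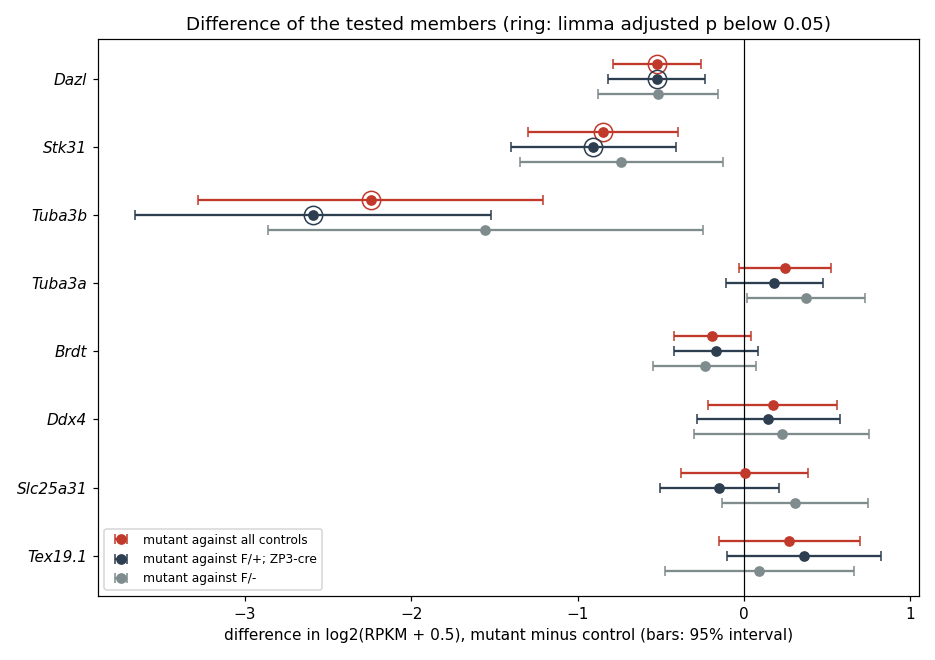
Log2 differences in RPKM + 0.5 (points) with 95% intervals (bars) of the 8 expressed germline genes, for mutants against all controls, against F/+; ZP3-cre and against F/- oocytes. The intervals of Dazl, Stk31 and Tuba3b lie below 0 in all 3 comparisons, with adjusted p under 0.05 in the first and the second.

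A wider list of 57 germline genes, with meiotic, piRNA and spermatogonial genes beside the members, was examined next. Like the silencing and paralog lists below, it was chosen with earlier results known, so its counts are not an independent test. Of these, 55 were in the table and 37 passed the expression filter, while 18 were below it, 4 of them at 0 in all libraries. Between mutants and all controls 4 were called lower, 1 was called higher and 32 did not pass, against 2.22% lower and 3.10% higher of all tested genes. The median log2 difference of the 37 was -0.31, against 0.03 for all tested genes, with 12 positive and 25 negative values, against 5971 positive and 5367 negative values over all tested genes. Against F/+; ZP3-cre alone 3 were called lower and 1 higher, where the shares of all tested genes were 2.13% and 2.76%. Against F/- alone limma called 1 lower, Tex15, and 0 higher, where the shares were 1.59% and 3.25%, and 8 of the 37 had an unadjusted p under 0.05.

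Tex15, which acts in male meiosis and in silencing of retrotransposons, was measured at 6.37, 7.39, 6.22 and 7.77 RPKM in mutant replicates 1 to 4, at 15.3, 18.1, 19.07 and 16.1 RPKM in F/+; ZP3-cre replicates 1 to 4, and at 14.99 and 18.6 RPKM in the F/- libraries. The 2 sets of libraries were far apart, and the log2 difference was -1.24 (SE 0.15, limma adjusted p = 0.00018). Tex15 was also called against F/- oocytes alone (limma adjusted p = 0.0041). Gtsf1, a cofactor of Piwi proteins, averaged 98.4 ± 16.9 RPKM in mutants (SD, n = 4) and 152 ± 17.2 RPKM in all controls (SD, n = 6), with a log2 difference of -0.63 (SE 0.12, limma adjusted p = 0.0089). Both of these calls were kept in all 18 settings tried.

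The other 3 called genes of the list were Rnf17, Syce1 and Sycp1. Rnf17, a Tudor-domain protein of germ-cell granules, averaged 11.5 ± 2.61 RPKM in mutants (SD, n = 4) and 17.7 ± 1.79 RPKM in all controls (SD, n = 6; log2 difference -0.62, limma adjusted p = 0.042), with overlapping libraries. Syce1, of the central element of the synaptonemal complex, averaged 0.120 ± 0.124 RPKM in mutants and 1.22 ± 0.887 RPKM in all controls (SD, n = 4 and 6; log2 difference -1.37, limma adjusted p = 0.046), and passed the expression filter through its control libraries alone. Sycp1, which forms the transverse filaments of the same complex, went the other way, with 3.60 ± 1.03 RPKM in mutants and 1.34 ± 0.267 RPKM in all controls (SD, n = 4 and 6; log2 difference 1.14, limma adjusted p = 0.023), and every mutant library was above every control. Rnf17 lost its call in 11 of 18 settings, among them the removal of any single library except mutant replicate 3 and F/- replicate 2 (adjusted p of 0.12 at the highest). Syce1 lost it in 13 of 17 settings, among them the removal of any single library except F/- replicate 2 (0.11 at the highest). Sycp1 lost it in 5 of 18 settings, among them the removal of mutant replicate 1 (0.070) or 3 (0.076) or of F/+; ZP3-cre replicate 1 (0.061) or 4 (0.064). The next genes by p, which did not pass, were the piRNA factor Tdrd1, at 157 ± 12.4 RPKM in mutants and 201 ± 23.0 RPKM in all controls (SD, n = 4 and 6; limma adjusted p = 0.066), and the crossover gene Msh4, at 3.60 ± 1.53 RPKM in mutants and 6.07 ± 0.989 RPKM in all controls (SD, n = 4 and 6; limma adjusted p = 0.11). Each passed without a single library, Tdrd1 without F/+; ZP3-cre replicate 3 (0.025) and Msh4 without mutant replicate 2 (0.033). Msh4 shares exon sequence with Gm24395 on the opposite strand.

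Of 34 genes for silencing factors of germline promoters, 31 were tested, and 1 was called higher, 3 were called lower, the deleted Setdb1 among them, and 27 did not pass, against 3.10% higher and 2.22% lower of all tested genes. Their median log2 difference was 0.03, the same as that of all tested genes to 2 decimals. Besides the deleted Setdb1, Dnmt1, the maintenance DNA methyltransferase, averaged 351 ± 22.8 RPKM in mutants (SD, n = 4) and 514 ± 32.7 RPKM in all controls (SD, n = 6), with a log2 difference of -0.55 (SE 0.08, limma adjusted p = 0.00081). Hells, a chromatin remodeller needed for DNA methylation, averaged 10.6 ± 1.37 RPKM in mutants and 18.3 ± 3.60 RPKM in all controls (SD, n = 4 and 6; log2 difference -0.74, limma adjusted p = 0.031), a call lost in 10 of 18 settings, among them the removal of any single library except mutant replicate 1 and F/- replicate 2 (0.090 at the highest).

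Mga, the scaffold of the variant Polycomb complex that binds germline promoters, rose in the mutant. It was measured at 23.5, 17.7, 27.9 and 18.8 RPKM in mutant replicates 1 to 4, at 10.8, 12.3, 12.4 and 9.93 RPKM in F/+; ZP3-cre replicates 1 to 4, and at 11.2 and 10.9 RPKM in the F/- libraries. All mutants were above all controls, and the log2 difference was 0.92 (SE 0.16, limma adjusted p = 0.0036). The calls of Mga and Dnmt1 were kept in all 18 settings tried. The next genes by p, which did not pass, were Atf7ip, a binding partner of SETDB1, at 60.6 ± 5.82 RPKM in mutants and 43.6 ± 7.90 RPKM in all controls (SD, n = 4 and 6; limma adjusted p = 0.083), and the Polycomb ubiquitin ligase gene Rnf2, at 34.8 ± 6.17 RPKM in mutants and 45.1 ± 2.64 RPKM in all controls (SD, n = 4 and 6; limma adjusted p = 0.088). Each passed without a single library, Atf7ip without F/- replicate 2 (0.039) and Rnf2 without mutant replicate 1 (0.033). Each shares exon sequence with a gene on the opposite strand, Gm44140 for Atf7ip and Trmt1l for Rnf2. Whether these levels bear on the members was not tested.

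Of 17 paralogs of the members, most of them expressed in somatic cells, such as the other alpha-tubulins and the other BET genes, 13 were tested and 0 were called in either direction by limma, with 3 at an unadjusted p under 0.05, as were 2242 of the 11338 genes in all. The smallest p belonged to Tex19.2, also in the wider germline list, the neighbour and close copy of Tex19.1, at 3.09 ± 2.54 RPKM in mutants and 1.08 ± 1.86 RPKM in all controls (SD, n = 4 and 6; limma adjusted p = 0.18), and to Slc25a4, the ADP/ATP carrier of muscle and heart, at 14.2 ± 4.17 RPKM in mutants and 19.7 ± 3.94 RPKM in all controls (SD, n = 4 and 6; limma adjusted p = 0.22). Tex19.2 was called higher without F/- replicate 2, the highest control at 4.86 RPKM (log2 difference 1.91, limma adjusted p = 0.015), and with library weights (limma adjusted p = 0.021). Of the 50-base stretches of the Tex19.1 transcript, 2.9% also occur in Tex19.2.

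**Figure D4:**
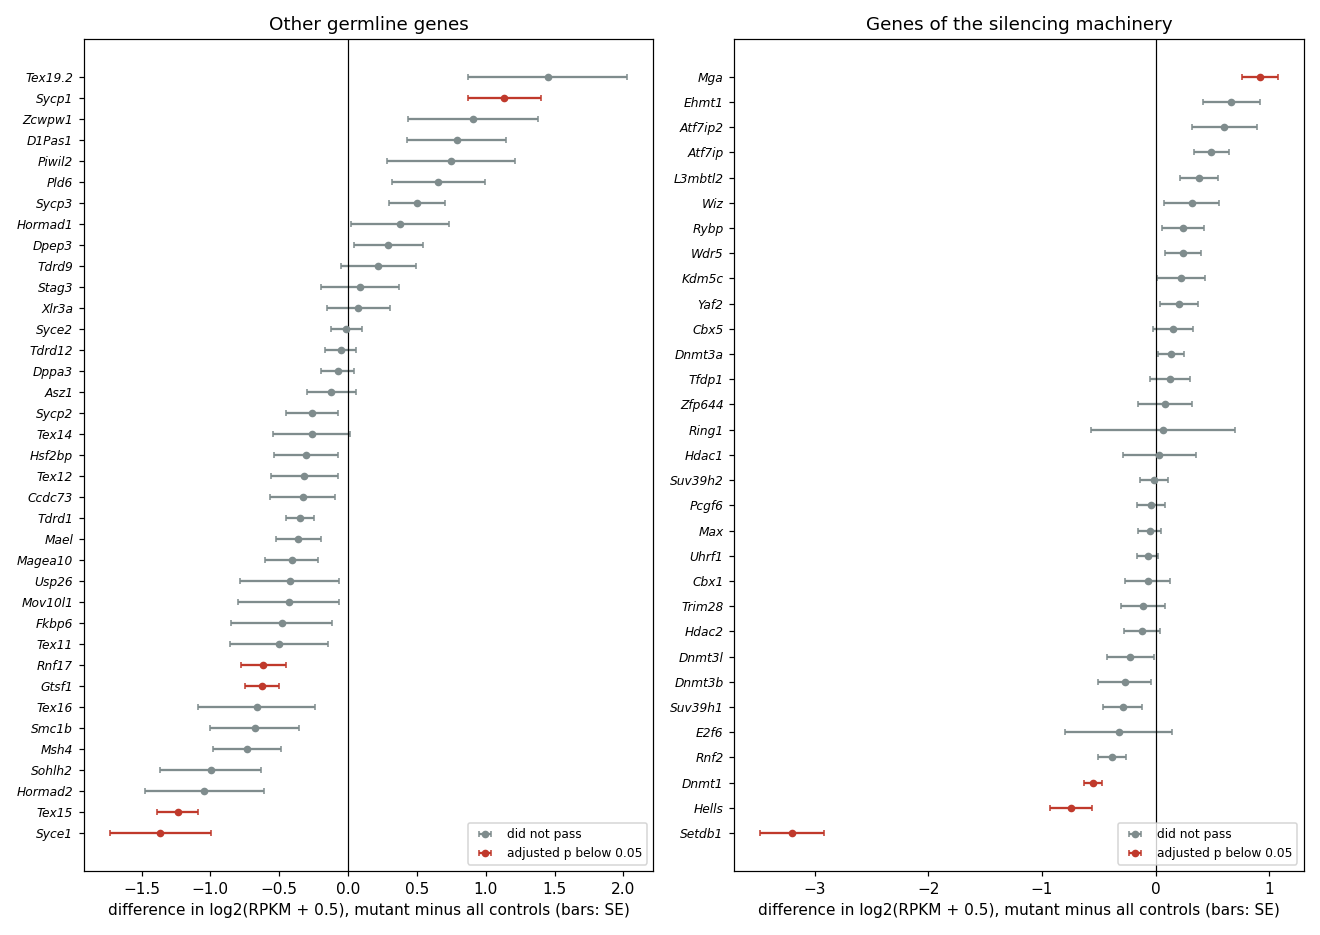
Differences in log2(RPKM + 0.5), mutants minus all controls, with SE (bars) for the tested genes of the wider germline list (left, 37 genes) and of the silencing factors (right, 31 genes), in red where the limma adjusted p was below 0.05. Sycp1 and Mga are the called genes above 0, and Syce1 (-1.37), Tex15 (-1.24), Gtsf1 and Rnf17, and Setdb1, Hells and Dnmt1, are the called genes below 0.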

How the data were processed

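RNA-seq libraries of GV oocytes from 10 mice were analysed from a table of RPKM values per RefSeq transcript that the authors deposited. Per the submitters' processing notes, reads were made with bcl2fastq 1.8.3 and STAR on the mm10 genome. No source used here gives the counting tool or the treatment of reads with several matches. Per the labels' protocols, cDNA was amplified with the NuGen Ovation system, which does not mark strand. Amplified reads are not independent molecules.

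Each symbol was represented by the row with the highest mean. Genes with a mean of 0.5 RPKM or more entered the test, made with limma 3.58.1 (R 4.3.3, trended variances) on log2(RPKM + 0.5), so fold changes of low genes are understated. Mutants were compared with all 6 controls in a model of 2 groups, and the single genotypes in a model of 3 groups. Adjusted p-values are Benjamini-Hochberg over all 11338 genes. Data were simulated with 200 changed genes and independent normal noise, the spread of each gene being the same in every group. The real libraries need not meet these settings, and in Dazl the SD differed between mutants and controls. In the simulated data, the fit of mutants against all controls recovered 46% of log2 changes of 1 and 85% of log2 changes of 2. Of its 135 calls, 6 were of unchanged genes. Against F/+; ZP3-cre 35% and 75% were recovered, and against F/- 28% and 69%. A gene that did not pass may therefore still have changed. Depth was estimated from the steps of the low RPKM values, of which 69.2% to 72.2% per library lay within 0.1 of a whole read.

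The members and gene lists were chosen with earlier results of these data known. Named are the 10 members, Setdb1, every called gene of the wider germline, silencing and paralog lists and, in each list, the 2 other genes with the smallest p. Library numbers are shared between groups, and deviations of same-numbered libraries from their group means had r of -0.046 to 0.031 over 8 pairs. No pairing was used. With 2 F/- libraries, the deviations of replicate 1 mirror those of replicate 2, so pairs with F/- are not separate checks. The check therefore does not exclude a shared effect of library number. Alternatives changed the pseudocount (0.1 or 1), the filter (none, or 1 RPKM), median centring, summing of rows, library weights, a replicate block and leaving out each library. Motifs and identities were computed from RefSeq promoters (GRCm38.p6) and GENCODE M21 transcripts with Biopython 1.88.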

Additional observations from a re-analysis of the deposited data

Results flagged for a closer look

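Within each group of 4 libraries, and within the 6 controls together, the highest and the lowest library of each named gene were compared with the rest by Dixon's ratio at the 95% level. The check covered 71 groups and marked 10 of them. For normal values in independent groups, chance alone marks about 1 in 20. The groups here were not independent, since the F/+; ZP3-cre libraries were also among the 6 controls. The RPKM values were not checked to be normal, so an excess of marks over chance was not shown. Among the members, Tuba3a in F/- replicate 2 (24.8 RPKM) stood below the other controls. The same library was the lowest control in Hells (11.3 RPKM) and Atf7ip (28.1 RPKM) and the highest in Tex19.2 (4.86 RPKM). Setdb1 in F/+; ZP3-cre replicate 4 (52.5 RPKM) stood above the other libraries of its genotype and above all other controls. Syce1 stood high in mutant replicate 2 (0.304 RPKM) among the mutants and in F/+; ZP3-cre replicate 3 (2.93 RPKM) among the controls. That control library was also the lowest in Dnmt1 (453 RPKM), and Msh4 was high in F/+; ZP3-cre replicate 2 (7.52 RPKM).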

How the results depend on the processing

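For the 3 members called lower, the count between mutants and all controls was 0 with no expression filter, 1 with the replicate block, and 1 to 3 when single libraries were left out. Tuba3b kept its call in 17 of 18 settings, Dazl in 11 and Stk31 in 9. All of these 17 settings used an expression filter, which Tuba3b passed through its control libraries alone. The count therefore does not make Tuba3b the firmest of the 3 calls. With the replicate block the adjusted p was 0.054 for Dazl and 0.056 for Stk31, and 0.024 for Tuba3b. Slc25a31 changed sign around 0, with -0.056 after median centring, -0.199 with library weights, and -0.106 to 0.103 without single libraries. No other member changed direction, and no uncalled member became called.

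Over all genes, mutants against all controls gave 807 higher and 581 lower with library weights, 150 lower with no filter, 140 lower with the replicate block, and 119 to 356 lower without single libraries. Against F/+; ZP3-cre there were 807 higher and 589 lower with library weights, 139 lower with the block, and 160 to 515 higher and 66 to 391 lower without single libraries. Against F/- there were 227 higher and 118 lower with no filter, 46 and 6 with library weights, 163 and 60 with the block, and 197 to 998 higher and 78 to 489 lower without single libraries. For F/- against F/+; ZP3-cre the counts were 8 higher and 17 lower with a pseudocount of 0.1, 14 lower with no filter, 9 and 11 with the filter at 1 RPKM, 5 lower with rows summed, 0 and 0 with library weights, 0 and 1 with the block, and 0 to 298 higher and 0 to 545 lower without single libraries. Leaving out 1 of the 2 F/- libraries leaves a lone library, assumed to vary like the others. The cause of these shifts was not tested. Syce1 had no value with the filter at 1 RPKM, and depth limits Tuba3b, Tex101 and Taf7l.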

Other observations

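Some markers of spermatogenic cells were found in these oocytes. Of 10 such markers 3 averaged at least 0.5 RPKM, the highest being Ldhc, a lactate dehydrogenase of germ cells, with a mean of 8.85 RPKM. In contrast, 5 were below 0.1 RPKM in every library, namely Tnp2, Tssk1, and Tnp1, Pgk2 and Spata18, the last 3 at 0 throughout. The summed level of the 10 markers was 11.0 to 15.9 RPKM in mutants, 6.92 to 12.7 RPKM in F/+; ZP3-cre and 3.30 to 17.5 RPKM in F/- libraries, and 0 of them were called.

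Within the mutants, replicate 1 had the highest Dazl (83.3 RPKM) and the highest Setdb1 (4.06 RPKM), and replicate 4 had the lowest Dazl (49.9 RPKM) and the lowest Setdb1 (1.31 RPKM). The libraries between them were in the opposite order, with 67.6 RPKM of Dazl and 2.55 RPKM of Setdb1 in replicate 2, and 60.4 RPKM of Dazl and 3.32 RPKM of Setdb1 in replicate 3. In Stk31 and Tuba3b replicate 1 was also the highest mutant, at 7.56 and 0.0729 RPKM, but replicate 4 was not the lowest. The lowest was replicate 3 for Stk31 (4.11 RPKM) and replicate 2 for Tuba3b (0.0113 RPKM). With 4 libraries no correlation was computed.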
